A study of Mus musculus with 4 samples.

Results

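Endothelial cells are the lining of the kidney's arteries, glomerular and peritubular capillaries, vasa recta and veins. They were chosen by their UMI counts, as cells with at least 200 detected genes that held 4 or more UMIs (unique molecular identifiers, each a counted RNA molecule) over Kdr, Emcn, Flt1, Egfl7, Cdh5 and Plvap. At least 2 of these 6 genes had to be detected, Ptprc (the leukocyte antigen CD45) had to be at 0 UMIs, and Slc34a1 (a phosphate carrier of the proximal tubule) had to take under 0.15% of the cell's UMIs. This rule found 127 cells among 15777. The 127 comprised 18 of 4396 cells in the panobinostat library, 40 of 3472 in the givinostat library, 34 of 3979 in the ruxolitinib library and 35 of 3930 in the vehicle library.

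The libraries hold total cells of kidneys from male C57Bl/6 mice aged 9 weeks with the genotype Pax2.rtTA;TetO.Cre;R26.Confetti, in which a Pax2 driver can switch on a multicolour reporter. Crescentic glomerulonephritis was induced in all of them, vehicle mice included, with anti-GBM serum, whose antibodies bind the basement membrane of glomeruli, and no library of healthy kidney is compared here. Treatment began on day 1. Doses were 15 mg/kg for panobinostat, 10 mg/kg for givinostat and 60 mg/kg for ruxolitinib, vehicle mice had distilled water, and mice were sacrificed on day 7. Each group had 2 animals according to the labels but is represented by 1 library, and whether both animals were pooled in it is not stated. The study asked by which mechanism the compounds act in this model. With 1 library per group no test is possible: all intervals below are 95% intervals for counting error alone, a difference is one between libraries, and all 3 drug comparisons share the vehicle library.

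Endothelial cells differ along the vascular tree. Arterial and arteriolar cells use the transcription factor Sox17, the connexin genes Gja4 and Gja5 and genes of elastic fibres, while kidney peritubular capillaries are fenestrated and express Plvap, which forms the diaphragm that spans a fenestra. Glomerular capillaries, the site to which anti-GBM antibody binds, have fenestrae without that diaphragm and express Ehd3. Vascular endothelial growth factor (VEGF), made by epithelium next to the capillaries, maintains fenestrated endothelium through its receptors Kdr and Flt1. Panobinostat and givinostat inhibit histone deacetylases (HDACs), enzymes that remove acetyl groups from histones and other proteins. Ruxolitinib inhibits the Janus kinases JAK1 and JAK2, which carry signals from interferon and many cytokine receptors to STAT transcription factors. Endothelial cells respond to interferon with antiviral genes and MHC class I antigen presentation, and respond to stress with immediate early transcription factors such as Jun, Fos and Egr1.

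The promoters of 4 genes that recur below are shown first, each 300 bases long, 250 before to 50 after the RefSeq start (build GRCm38.p6). Emcn stands for the genes that chose the cells, and Rsad2, Ifit3 and Isg15 for the interferon genes whose levels differed between libraries. Capitals mark the match to a motif, read on both strands: CAGGAAG, a binding sequence of ETS factors, in Emcn, and the core of the interferon-stimulated response element, GAAA and GAAA with 2 bases of any kind between them, in the other 3.
Emcn, chr3:137340828-137341127, plus strand: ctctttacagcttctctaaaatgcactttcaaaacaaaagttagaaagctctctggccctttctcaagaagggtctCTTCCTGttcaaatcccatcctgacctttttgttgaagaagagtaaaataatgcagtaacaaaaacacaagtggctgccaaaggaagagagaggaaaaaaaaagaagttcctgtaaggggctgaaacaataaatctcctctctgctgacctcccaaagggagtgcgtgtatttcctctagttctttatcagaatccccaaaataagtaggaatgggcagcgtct
Rsad2, chr12:26456403-26456702, minus strand: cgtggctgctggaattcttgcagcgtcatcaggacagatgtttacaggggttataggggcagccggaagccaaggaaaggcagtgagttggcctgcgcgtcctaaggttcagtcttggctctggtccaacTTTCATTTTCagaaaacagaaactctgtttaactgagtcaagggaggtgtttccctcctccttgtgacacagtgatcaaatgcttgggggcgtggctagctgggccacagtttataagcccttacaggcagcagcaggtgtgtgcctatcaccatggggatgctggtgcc
Ifit3, chr19:34583279-34583578, plus strand: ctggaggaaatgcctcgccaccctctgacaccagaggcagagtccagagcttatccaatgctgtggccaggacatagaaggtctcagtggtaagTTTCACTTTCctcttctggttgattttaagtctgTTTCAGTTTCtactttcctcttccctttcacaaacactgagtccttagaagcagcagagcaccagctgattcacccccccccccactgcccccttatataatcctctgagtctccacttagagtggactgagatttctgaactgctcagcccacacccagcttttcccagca
Isg15, chr4:156200769-156201068, minus strand: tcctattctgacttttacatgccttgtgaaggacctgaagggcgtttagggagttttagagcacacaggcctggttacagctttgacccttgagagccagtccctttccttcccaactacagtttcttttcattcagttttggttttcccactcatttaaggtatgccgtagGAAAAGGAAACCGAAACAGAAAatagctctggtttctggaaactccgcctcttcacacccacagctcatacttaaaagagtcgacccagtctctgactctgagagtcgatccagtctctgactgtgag
The Emcn match lies on the opposite strand with its first base 174 bases before the start. Rsad2 has 1 match and Ifit3 has 2, all on the opposite strand, and Isg15 has 3 overlapping matches on the gene's own strand. Among 32851 mouse promoters of the same length, 1131 hold the interferon element (3.44%) and 4359 hold CAGGAAG (13.3%). Of 21 interferon response genes with a promoter in the table, 14 hold that element, as do 2 of 9 MHC class I genes (B2m and H2-T23) and 0 of 17 general endothelial genes. CAGGAAG stands in 7 of those 17 endothelial promoters (Adgrf5, Cd34, Egfl7, Emcn, Erg, Rasip1 and Robo4), in 6 of the 21 interferon promoters and in 0 of the 9 MHC class I promoters. A match describes the letters in the window and is no evidence that a factor binds.

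The libraries differ in ways that touch the counts below. Kept cells had 36861583 to 45075309 UMIs per library in all, and the endothelial cells 92758 (panobinostat), 296903 (givinostat), 317155 (ruxolitinib) and 391616 (vehicle). The lowest UMI total of any kept cell was 2920 in the panobinostat library, 5272 in the givinostat library, 3817 in the ruxolitinib library and 3723 in the vehicle library, a sharp lower edge that differs by library and whose origin is not given in the sources used here. Endothelial cells had median totals of 3964, 6728, 5760 and 6155 UMIs in the same order, below those of the other cells of each library (6576, 10080, 8412 and 7969). Markers of another kidney or blood cell type reached 1% of a cell's UMIs in 4 of 18, 1 of 40, 7 of 34 and 9 of 35 endothelial cells, which held 20.4%, 1.90%, 44.3% and 38.9% of the endothelial UMIs. Cells with more than 2 times their library's median endothelial total numbered 1, 1, 7 and 11, and the 11 vehicle cells held 63.3% of all vehicle endothelial UMIs. In the panobinostat, givinostat, ruxolitinib and vehicle sums, proximal tubule markers took 0.451%, 0.231%, 0.346% and 0.667% of UMIs, and loop of Henle markers 0.0960%, 0.0115%, 0.652% and 0.574%. Markers of the distal tubule and collecting duct took 0.116%, 0.0492%, 0.320% and 0.172%, and those of mesangial cells, pericytes and fibroblasts 0.0356%, 0.00135%, 0.00347% and 0.164%. Leukocyte lists were low, with macrophage and monocyte markers at 0.132%, 0.0175%, 0.0164% and 0.0444%. The pairs of libraries shared 2 to 4 cell barcodes, none of them endothelial.

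The markers of this cell type were present in cells of all 4 libraries. Pecam1, an adhesion molecule of endothelial junctions that the rule did not use, had at least 1 UMI in 18 of 18, 40 of 40, 32 of 34 and 32 of 35 endothelial cells, against 1.27%, 2.46%, 1.68% and 1.64% of proximal tubule cells, which should lack it. Its level was 1067, 1149, 945.9 and 569.4 counts per 1000000 UMIs (CPM) in the panobinostat, givinostat, ruxolitinib and vehicle endothelial cells, against 9.36, 18.3, 12.5 and 11.7 CPM in all other kept cells. Gate genes had large margins: 121 of 127 cells held 10 or more UMIs of the 6 genes, 5 held between 5 and 9, and 1 held exactly 4, while 3 cells with 3 UMIs stood just outside. Of 244 cells with enough gate UMIs, 86 were left out for Ptprc and 31 for Slc34a1. Outside the gate genes, those that stood highest over all other kept cells in every library were Ptprb, a phosphatase that restrains the receptor Tek, Adgrl4, an adhesion receptor of vascular cells, Tm4sf1, the transcription factor Meis2, Eng, a co-receptor of BMP signalling, and Fabp4, a fatty acid carrier. Ptprb exceeded the other cells 96.6 to 126 times and Fabp4 58.4 to 138 times, which describes how cells so chosen look and is no test. Emcn, the gate gene for the sialomucin endomucin, had 1617, 2179, 1365 and 957.6 CPM.

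Endothelial cells made up a smaller share of the panobinostat library than of the others. Their share of kept cells was 0.410% in the panobinostat library (exact interval 0.243% to 0.646%), 1.15% in the givinostat library (0.824% to 1.57%), 0.855% in the ruxolitinib library (0.593% to 1.19%) and 0.891% in the vehicle library (0.621% to 1.24%). Set over vehicle, the panobinostat share was 0.460 times as large (0.245 to 0.834), the givinostat share 1.29 times (0.801 to 2.10) and the ruxolitinib share 0.960 times (0.581 to 1.58), and the counting interval excludes 1 for panobinostat only. This depends on the rule: without the Slc34a1 limit the panobinostat ratio was 0.639 (0.386 to 1.04), from 30 and 42 cells, an interval that includes 1. The givinostat interval excludes 1 without the Ptprc limit, at 1.52 (1.04 to 2.23), and without cells that carry markers of other types, at 1.70 (1.01 to 2.90). Because the lower edge of UMI totals differs, the shares were also taken over cells with at least 5272 UMIs. There the counts were 7 of 2748 cells (0.255%) with panobinostat, 40 of 3472 (1.15%) with givinostat, 22 of 3115 (0.706%) with ruxolitinib and 23 of 2862 (0.804%) with vehicle, and the panobinostat ratio was 0.317 (0.115 to 0.763). Whether a library's edge, dissociation or cell loss sets these shares was not tested, and a share of cells in suspension is not a density of vessels.

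**Figure D1:**
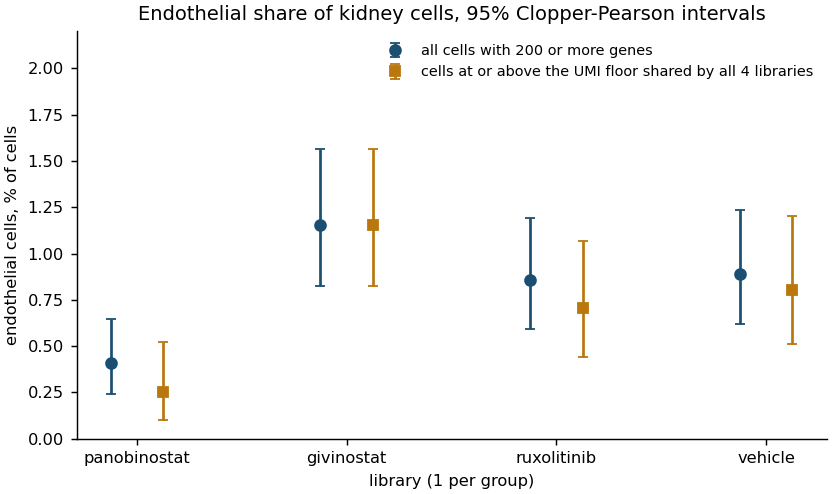
Endothelial cells as a percent of cells in each library, with 95% Clopper-Pearson intervals for counting error, over all cells with 200 or more genes (circles) and over cells with at least 5272 UMIs (squares). Panobinostat stands lowest at 0.410% and 0.255% and givinostat highest at 1.15% in both.

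The mix of vessel types also differed between libraries. Each cell was placed by 14 arterial and arteriolar genes (Gja4, Gja5, Fbln5, Efnb2, Sox17, Bmx, Hey1, Cxcl12, Ltbp4, Eln, Jag1, Alox12, Tm4sf1 and Edn1) against 9 peritubular capillary genes (Igfbp3, Npr3, Igfbp5, Plpp1, Cd36, Rgcc, Jup, Kcnj15 and Plpp3), by which list had more UMIs. Cells with at least 5 UMIs of Ehd3 and none of Plvap were set apart as glomerular-leaning. This division was made after the data were seen. It cuts a range, not types, and 4 of the 127 cells lie within 3 UMIs of the cut. Arterial-leaning cells numbered 6 of 18 with panobinostat, 5 of 40 with givinostat, 6 of 34 with ruxolitinib and 21 of 35 with vehicle. These are shares of 33.3% (13.3% to 59.0%), 12.5% (4.19% to 26.8%), 17.7% (6.76% to 34.5%) and 60.0% (42.1% to 76.1%). Vehicle stood highest, and the givinostat and ruxolitinib intervals do not reach the vehicle interval, while that of panobinostat overlaps it.

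Capillary-leaning cells numbered 10, 34, 23 and 11 in the panobinostat, givinostat, ruxolitinib and vehicle libraries, or 55.6%, 85.0%, 67.7% and 31.4% of endothelial cells. As a share of all kept cells they were 0.228% with panobinostat, 0.979% with givinostat, 0.578% with ruxolitinib and 0.280% with vehicle, and arterial-leaning cells were 0.137%, 0.144%, 0.151% and 0.534%. The arterial-leaning share of kept cells was thus lower in each drug library than in the vehicle library, and the capillary-leaning share was higher in the givinostat and ruxolitinib libraries. Glomerular-leaning cells numbered 2, 0, 4 and 3, so 9 cells in all passed this cut, and for givinostat 0 of 40 allows a share of cells that pass it of up to 7.50%. Ehd3 itself had at least 1 UMI in 9 of 18, 22 of 40, 19 of 34 and 14 of 35 endothelial cells, against 0.318%, 1.08%, 0.605% and 0.548% of proximal tubule cells. Without the cells that carry markers of other types the arterial-leaning counts were 4 of 14, 5 of 39, 6 of 27 and 16 of 26, and thinned to a common 5374 UMIs the shares were 42.9%, 11.1%, 22.7% and 65.2%. The odd-numbered members of both lists gave 27.8%, 17.5%, 23.5% and 60.0%, and the even-numbered 22.2%, 12.5%, 23.5% and 45.7%. In every one of these variants vehicle stood highest. Whether the libraries received different parts of the kidney (cortex, large vessels) at dissection was not tested.

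**Figure D2:**
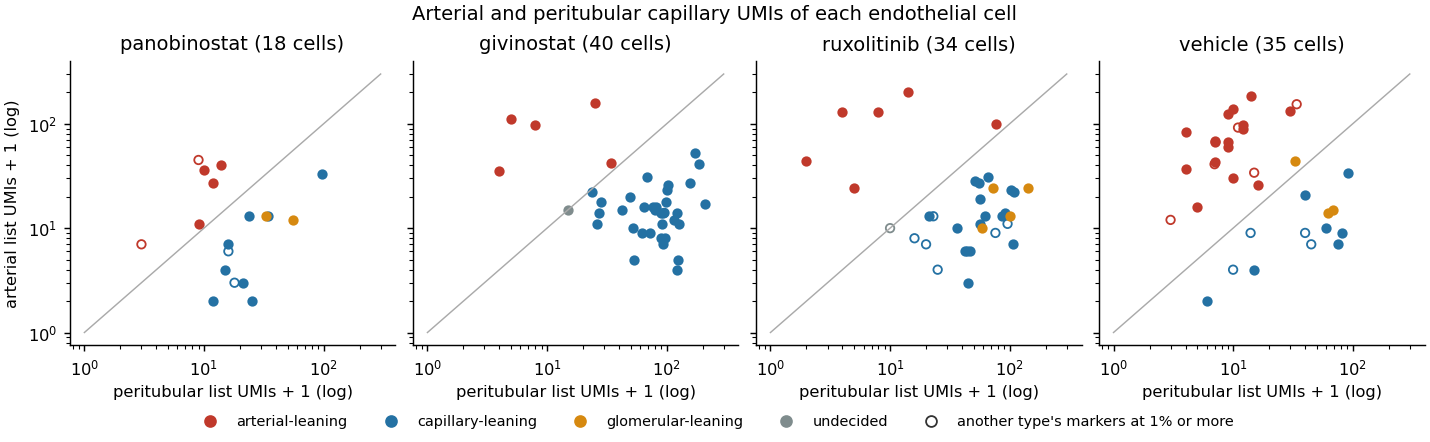
Each point is 1 endothelial cell, placed by its UMIs of the 9 peritubular capillary genes (x, plus 1, log axis) and of the 14 arterial genes (y, plus 1, log axis), in a panel for each library. Colours give the class, open points carry another type's markers at 1% of UMIs or more, and the line marks equal counts. Most vehicle cells (21 of 35) are arterial-leaning and most givinostat cells (34 of 40) are capillary-leaning.

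Vessel lists were then compared between these groups, and some of them share genes with the rule or the division. The vasa recta list shares no gene with either. General endothelial genes had a median of 162 UMIs per 10000 in the 31 arterial-leaning cells with other types' markers under 1% of UMIs. Here and below, cells without other types' markers are cells under that limit, not cells with none. Tagln, a gene of smooth muscle, still had 577.4 CPM in the vehicle arterial-leaning cells under it. In the 65 capillary-leaning cells under the limit the general endothelial median was 259. The list's 30 genes include the 6 of the rule and Sox17 of the division. The 9 peritubular genes, which helped to set the division, had medians of 125.2 per 10000 in glomerular-leaning cells and 119.5 in capillary-leaning cells. The 8 vasa recta genes, a list of vessels that descend into the medulla, had a median of 34.4 per 10000 UMIs in arterial-leaning cells against 7.42 in capillary-leaning and 13.5 in glomerular-leaning cells. The 12 glomerular genes measured had 86.2 per 10000 in glomerular-leaning cells, which Ehd3 itself helped to choose, against 17.3 in arterial-leaning and 18.8 in capillary-leaning cells. Glomerular-leaning cells also held 1988 CPM of Kdr and 4462 CPM of Igfbp5, and Plvap was 0 there by the rule. Venous genes were low in all groups, and of 8 lymphatic genes 4 were measured, at a median of 0 in arterial-leaning cells and of 2.30 and 1.56 per 10000 in capillary-leaning and glomerular-leaning cells.

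Of 1389 genes with enough UMIs, 32 were at least 2-fold higher in arterial-leaning than in capillary-leaning cells in all 4 libraries (2.30%), and 24 were at least 2-fold lower (1.73%). The comparison used a pseudocount of 20 CPM. Among genes outside both lists, Cldn5, the main claudin of endothelial tight junctions, had 1151, 1576, 969.3 and 718.7 CPM in arterial-leaning cells of the panobinostat, givinostat, ruxolitinib and vehicle libraries, against 66.2, 24.7, 52.1 and 0 CPM in capillary-leaning cells. It was higher on the arterial side in each library, with log2 ratios of 3.76 to 5.21. Tspan8, a tetraspanin, had 1427, 262.7, 1752 and 1646 CPM in arterial-leaning cells against 22.1, 4.11, 83.3 and 199 CPM in capillary-leaning cells. Sorbs2, a protein of actin attachments, had 322.3, 289.0, 205.0 and 288.7 CPM against 22.1, 12.3, 20.8 and 24.9 CPM. Both were higher in arterial-leaning cells in every library, Tspan8 with log2 ratios of 2.93 to 5.10 and Sorbs2 of 2.46 to 3.26. Mgp, an inhibitor of vessel wall calcification, had log2 ratios of 3.12 to 9.23, Aqp1, the water channel of descending vasa recta, 3.47 to 7.78, and S100a4, a calcium-binding protein, 2.42 to 5.18. Arterial levels of these 3 genes varied between libraries, those of Mgp between 920.8 and 18212 CPM. Aqp1 was detected in only 6, 2, 5 and 7 endothelial cells of the panobinostat, givinostat, ruxolitinib and vehicle libraries. In the same order, 50.7%, 63.5%, 72.7% and 52.7% of its UMIs came from 1 cell.

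Other genes were lower in arterial-leaning than in capillary-leaning cells. Tbxa2r, the thromboxane receptor, had 0, 0, 0 and 12.3 CPM in arterial-leaning cells of the panobinostat, givinostat, ruxolitinib and vehicle libraries, against 110.3, 222.0, 208.3 and 199.0 CPM in capillary-leaning cells. Marcks, a membrane protein that binds actin, had 230.2, 157.6, 111.8 and 98.3 CPM against 1103, 1102, 593.8 and 572.1 CPM. Esm1, a proteoglycan that VEGF induces, had 0, 157.6, 18.6 and 36.9 CPM against 132.4, 764.6, 562.5 and 472.6 CPM. All 3 were lower in arterial-leaning cells in every library, with log2 ratios of -3.60 to -2.70 for Tbxa2r, -2.66 to -2.17 for Marcks and -3.91 to -2.14 for Esm1. Gpihbp1, which carries lipoprotein lipase across capillary endothelium, ran from -3.97 to -1.34, and Fabp5, a fatty acid carrier, from -4.70 to -2.34. Igf1, the growth factor, had 0 CPM in arterial-leaning cells of every library and 352.9, 230.2, 218.8 and 49.8 CPM in capillary-leaning cells. The lists and these genes were read from the same cells, so the values describe the division and are no test of it.

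**Figure D3:**
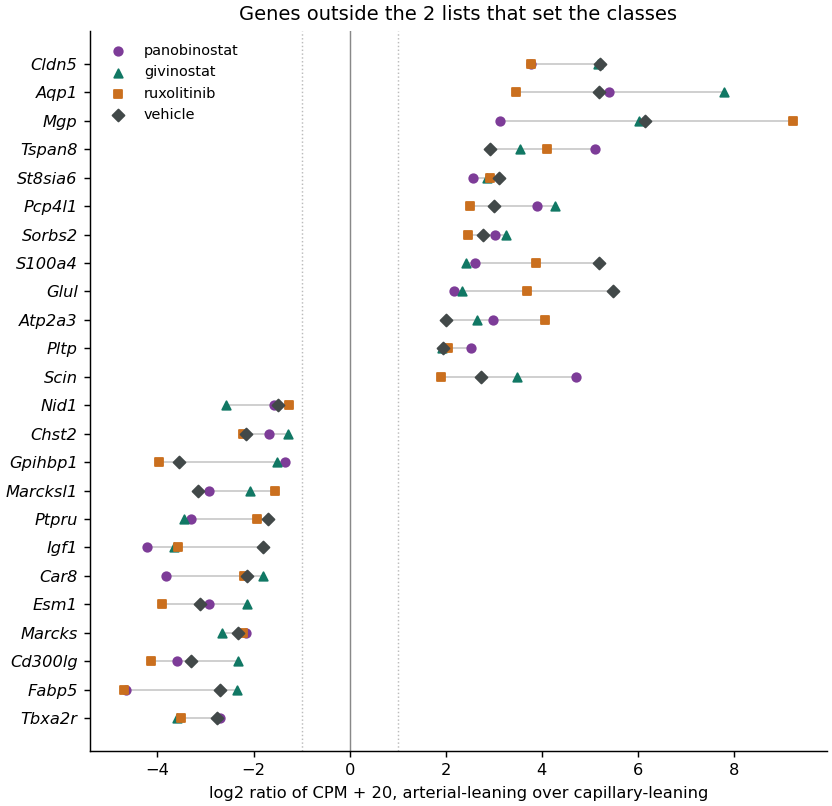
Log2 ratios of CPM + 20 of arterial-leaning over capillary-leaning cells in each of the 4 libraries (symbols), for 12 genes higher and 12 lower in all 4 libraries and outside the lists that set the classes, with 2-fold marked by dotted lines. Cldn5 runs from 3.76 to 5.21 and Tbxa2r from -3.60 to -2.70, and each gene keeps its sign in all 4 libraries.

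Gene lists were compared between the same classes. VEGF and angiopoietin pathway genes had a median log2 ratio of arterial-leaning over capillary-leaning cells between -1.80 and -1.05 over the 4 libraries, with 4 of 13 tested members at least 2-fold lower in all 4 and 0 higher. Over all tested genes the same median ran from -0.143 to 0.245, with 2.30% called higher and 1.73% called lower. The VEGF and angiopoietin list includes Kdr and Flt1, which helped to choose the cells. Interferon genes had 18 tested members with medians of -1.09 to 0.465, and MHC class I genes 9 with -0.884 to -0.142. Immediate early genes had 15 tested members with medians of -1.16 to 1.32. In each of these lists 0 members were called in either direction. That is near the shares over all tested genes and does not show that the classes are alike. Since vessel mix moved with library, values in capillary-leaning cells (8, 33, 17 and 7 cells without other types' markers in the panobinostat, givinostat, ruxolitinib and vehicle libraries) stand beside the sums over all endothelial cells below. The part of vessel mix in those sums was not tested. The largest of these capillary-leaning cells held 11979 of 45333 UMIs with panobinostat and 24611 of 243252 with givinostat. With ruxolitinib it held 15835 of 95995 UMIs and with vehicle 11873 of 40200. That vehicle cell had only 11 UMIs of the gate genes. Ratios to vehicle within the class thus rest on few cells, with a large part of the vehicle UMIs from 1 of them.

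Sums over all endothelial cells were then set against vehicle. Genes were compared where either library of a pair reached 100 CPM in endothelial cells, on the log2(CPM + 5) scale, which understates ratios of low genes. Of 2211 such genes, 312 (14.1%) were 2-fold or more higher with panobinostat and 197 (8.91%) lower. For givinostat 347 of 2242 (15.5%) were higher and 224 (9.99%) lower. For ruxolitinib 114 of 1990 (5.73%) were higher and 111 (5.58%) lower. In all other kept cells 12 of 1449, 21 of 1554 and 11 of 1480 genes passed 2-fold in either direction. A level of 100 CPM is 9.28 UMIs in the panobinostat sum, 29.7 with givinostat, 31.7 with ruxolitinib and 39.2 in the vehicle sum. In other kept cells it is 3677, 4478, 4256 and 4024 UMIs in the same order. Counting error thus differs, and the counts of genes in endothelial and in other kept cells are not comparable. The balance of higher and lower genes for panobinostat depends on the scaling, with 166 higher and 336 lower under TMM factors and 216 higher and 285 lower under DESeq2 size factors. For givinostat it was 286 higher and 286 lower under DESeq2 size factors and 310 higher and 304 lower with mitochondrial and haemoglobin genes left out of the total. Median log2 ratios over all genes at 20 CPM or more were 0.13, 0.09 and -0.01, and list medians below are read beside them. Counts of list members below are read beside the shares of higher and lower genes given above. A gene under 100 CPM with vehicle entered a comparison only where the drug library was higher, so the filter shapes these counts.

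**Figure D4:**
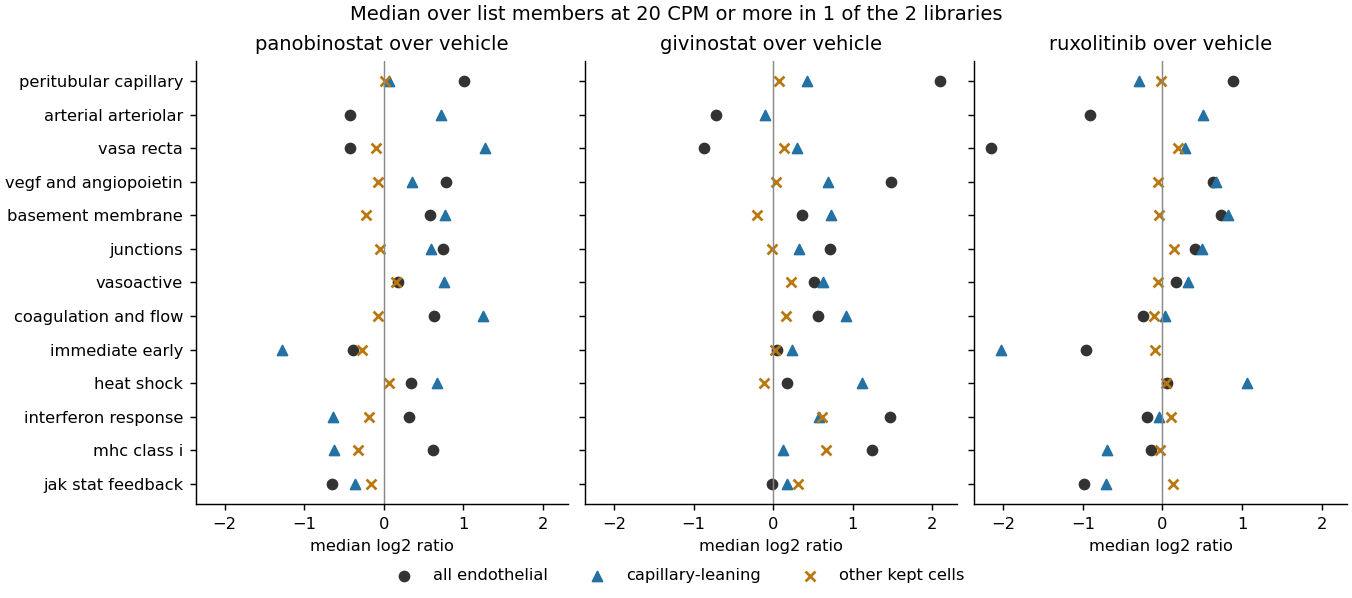
Median log2 ratio to vehicle of 13 gene lists for panobinostat, givinostat and ruxolitinib (members at 20 CPM or more in 1 of the 2 libraries), in all endothelial cells (circles), in capillary-leaning cells without other types' markers (triangles) and in all other kept cells (crosses). Interferon genes stand at 1.47 with givinostat in all endothelial cells and at 0.57 in capillary-leaning cells, and immediate early genes at -0.96 and -2.03 with ruxolitinib. The arterial list has no cross since no member reaches 20 CPM in other kept cells.

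VEGF and capillary genes were higher in the givinostat sum. Of 13 VEGF and angiopoietin genes that passed 100 CPM, 9 were 2-fold or more higher with givinostat and 0 lower (list median log2 ratio 1.48). The counts were 5 of 13 and 0 with panobinostat (0.78), and 6 of 12 and 0 with ruxolitinib (0.63). Over all tested genes 15.5%, 14.1% and 5.73% were higher with givinostat, panobinostat and ruxolitinib, and 9.99%, 8.91% and 5.58% lower. The list counts and medians include Flt1 and Kdr, which helped to choose the cells. Flt1 and Kdr, the VEGF receptors and both genes of the rule, had 1035, 2112, 1148 and 635.8 CPM and 603.7, 1273, 945.9 and 342.2 CPM in the panobinostat, givinostat, ruxolitinib and vehicle sums. Nrp2, a VEGF co-receptor that the rule did not use, had 204.8, 296.4, 113.5 and 43.4 CPM, with ratios to vehicle of 4.72 (2.32 to 9.66), 6.83 (4.03 to 12.3) and 2.62 (1.43 to 4.96). Vehicle was lowest for all 3 genes. Esm1 had 75.5, 646.7, 299.5 and 79.2 CPM, with 49.0% of the givinostat UMIs from 1 cell. In capillary-leaning cells the list medians were 0.35 with panobinostat, 0.69 with givinostat and 0.67 with ruxolitinib, and Nrp2 had 375.0, 324.8, 239.6 and 174.1 CPM, with intervals of all 3 ratios that include 1. Per capillary-leaning cell the list's sum had medians of 65.6, 101.4, 116.1 and 80.3 per 10000 UMIs, with ranges that overlap throughout.

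Plvap, Rgcc and Fabp4, genes of peritubular and other capillaries, were also above vehicle in each drug library's sum. Plvap had 1617, 3307, 1012 and 452.0 CPM in the panobinostat, givinostat, ruxolitinib and vehicle sums, and 2912, 3926, 2479 and 2811 CPM in capillary-leaning cells. Rgcc, a cell cycle regulator, had 560.6, 1765, 343.7 and 137.9 CPM in the sums and 1103, 2010, 854.2 and 1219 CPM in capillary-leaning cells. Fabp4 had 2835, 3728, 2084 and 939.7 CPM in the sums and 3507, 3860, 5052 and 4577 CPM in capillary-leaning cells. For these 3 genes every drug library was above vehicle in the sums. In capillary-leaning cells vehicle lay within the range of the drug libraries. Plvap is a gene of the rule, and Rgcc, Igfbp3 and Igfbp5 are among the genes that set the division. Their levels in these cells therefore depend on how the cells were chosen. Igfbp3, which binds insulin-like growth factors and helped to define the division, differed within the class: 22.1 CPM from 1 UMI with panobinostat, against 2590 with givinostat, 1677 with ruxolitinib and 2164 with vehicle. It was detected in 1 of 8, 27 of 33, 10 of 17 and 5 of 7 capillary-leaning cells. Igfbp5 had 1699, 2824, 4271 and 1617 CPM there, with ruxolitinib over vehicle at 2.64 (2.03 to 3.49). Aplnr, the receptor for apelin, had 269.5, 94.3, 85.1 and 12.8 CPM in the sums, with 56.0% of the panobinostat UMIs from 1 cell.

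Interferon response genes were higher with givinostat. Of 21 that passed 100 CPM, 15 were 2-fold or more higher and 0 lower (median 1.47, 23 of 25 members at 20 CPM above vehicle). With panobinostat 5 of 13 were higher and 0 lower (median 0.32), and with ruxolitinib 1 of 9 and 0 (median -0.19). Since only 9 passed in the ruxolitinib comparison, most of the 21 reached 100 CPM only in the givinostat library, where they were high. The count of 15 higher and 0 lower is therefore partly set by that filter. Rsad2, an antiviral enzyme, had 690.0, 1330, 608.5 and 311.5 CPM in the panobinostat, givinostat, ruxolitinib and vehicle endothelial cells and 14.4, 30.7, 13.9 and 5.10 CPM in other kept cells. The ratio to vehicle was 2.22 (1.61 to 3.02) with panobinostat, 4.27 (3.48 to 5.28) with givinostat and 1.95 (1.55 to 2.47) with ruxolitinib, so the vehicle library was lowest. Isg15, a ubiquitin-like modifier, had 118.6, 478.3, 82.0 and 166.0 CPM, with givinostat over vehicle at 2.88 (2.13 to 3.93) and ruxolitinib over vehicle at 0.494 (0.301 to 0.789). Ifit3, a protein that binds viral RNA, had 97.0, 360.4, 66.2 and 86.8 CPM, and Iigp1, an interferon-inducible GTPase, 75.5, 363.8, 47.3 and 53.6 CPM. Givinostat was highest for each of these genes, and ruxolitinib lowest for Isg15, Ifit3 and Iigp1.

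In capillary-leaning cells the givinostat difference was smaller. The interferon list median was -0.64 with panobinostat, 0.57 with givinostat and -0.05 with ruxolitinib, and 22 of 25 members at 20 CPM were above vehicle with givinostat. Rsad2 had 639.7, 1513, 1479 and 1194 CPM there, with panobinostat at 0.536 of vehicle (0.326 to 0.867) and givinostat at 1.27 (0.936 to 1.75). Iigp1 had 110.3, 415.2, 52.1 and 99.5 CPM, with givinostat over vehicle at 4.17 (1.58 to 15.6) from 4 vehicle UMIs. Per capillary-leaning cell the list's sum had a median of 101.0 per 10000 UMIs with panobinostat (range 30.2 to 166.4, 8 cells), 179.6 with givinostat (26.0 to 283.3, 33 cells), 141.7 with ruxolitinib (29.7 to 331.5, 17 cells) and 115.4 with vehicle (41.3 to 285.6, 7 cells). The ranges overlap, and 30 of the 33 givinostat cells lie above the vehicle median. Cells of 1 library are not replicates of a treatment. The same list had a median ratio of 0.61 in all other kept cells of the givinostat library, where 15 of 16 members at 20 CPM were above vehicle.

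MHC class I genes followed. With givinostat 6 of 9 were 2-fold or more higher and 0 lower (median 1.24), with panobinostat 1 of 8 and 0 (0.62), and with ruxolitinib 0 of 7 and 0 (-0.14). B2m, the invariant light chain, had 2577, 4540, 1504 and 1427 CPM in the panobinostat, givinostat, ruxolitinib and vehicle endothelial cells, against 746.9, 1628, 983.3 and 951.2 CPM in other kept cells. H2-K1, a classical heavy chain, had 1639, 2263, 700.0 and 1004 CPM. Givinostat stood highest for both, and ruxolitinib and vehicle lowest. In capillary-leaning cells B2m had 2338, 4748, 2875 and 3632 CPM, with panobinostat at 0.644 of vehicle (0.497 to 0.833), givinostat at 1.31 (1.1 to 1.56) and ruxolitinib at 0.792 (0.646 to 0.974). H2-K1 had 2051, 2372, 1229 and 2512 CPM there, with ruxolitinib at 0.489 of vehicle (0.372 to 0.645). Within the class vehicle is thus no longer low for these genes, and the list medians were -0.63, 0.12 and -0.70.

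Immediate early genes were lower in the ruxolitinib endothelial cells. Of 16 that passed 100 CPM, 8 were 2-fold or more lower with ruxolitinib and 0 higher (median -0.96, 0 of 16 above vehicle), 5 lower and 0 higher with panobinostat (-0.39), and 1 lower and 2 higher with givinostat (0.05). Egr1, a zinc finger transcription factor, had 1283, 1674, 479.3 and 1696 CPM in the panobinostat, givinostat, ruxolitinib and vehicle sums, and ruxolitinib stood at 0.283 of vehicle (0.235 to 0.338). Jun, a subunit of AP-1, had 3180, 7885, 1728 and 3023 CPM, with ratios to vehicle of 1.05 (0.923 to 1.20), 2.61 (2.43 to 2.80) and 0.572 (0.516 to 0.633). Ruxolitinib was lowest for both, and givinostat highest for Jun. Fos, its partner, had 1790, 2469, 1252 and 2569 CPM. In other kept cells Jun had 1793, 1625, 1719 and 1885 CPM, and the list medians were -0.28, 0.02 and -0.1.

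The same order held in capillary-leaning cells, with list medians of -1.28 for panobinostat, 0.24 for givinostat and -2.03 for ruxolitinib. Jun had 1610, 8756, 1594 and 4726 CPM there, with panobinostat at 0.341 of vehicle (0.257 to 0.449), givinostat at 1.85 (1.596 to 2.16) and ruxolitinib at 0.337 (0.271 to 0.419). Egr1 had 330.9, 1850, 250 and 1517 CPM. Panobinostat and ruxolitinib were low and givinostat and vehicle high for both genes. Per cell the list's sum had medians of 39.4 (range 4.54 to 381.7), 205.6 (3.39 to 989.4), 24.1 (6.32 to 367.8) and 71.6 (13.9 to 563.3) per 10000 UMIs, and in arterial-leaning cells of 128.0, 98.5, 23.7 and 147.9. The ranges overlap in all 4 libraries. Only 3 of 17 ruxolitinib capillary-leaning cells and 2 of 8 panobinostat cells lay above the vehicle median, against 20 of 33 givinostat cells. These genes also respond to tissue dissociation, whose part in the result was not tested. Socs3, the STAT3-induced feedback inhibitor, had 269.5, 535.5, 151.3 and 426.4 CPM in the sums, with ruxolitinib at 0.355 of vehicle (0.252 to 0.492). In capillary-leaning cells it had 176.5, 629.0, 93.8 and 472.6 CPM, and ruxolitinib stood at 0.198 (0.0790 to 0.460). Over 15 genes of JAK-STAT signalling and feedback, which share Junb with the immediate early list, 0 of 6 at 100 CPM were 2-fold higher and 2 lower with ruxolitinib (median -0.99, or -0.39 over the members at 100 CPM), 0 in either direction with panobinostat (-0.65) and with givinostat (-0.01).

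**Figure D5:**
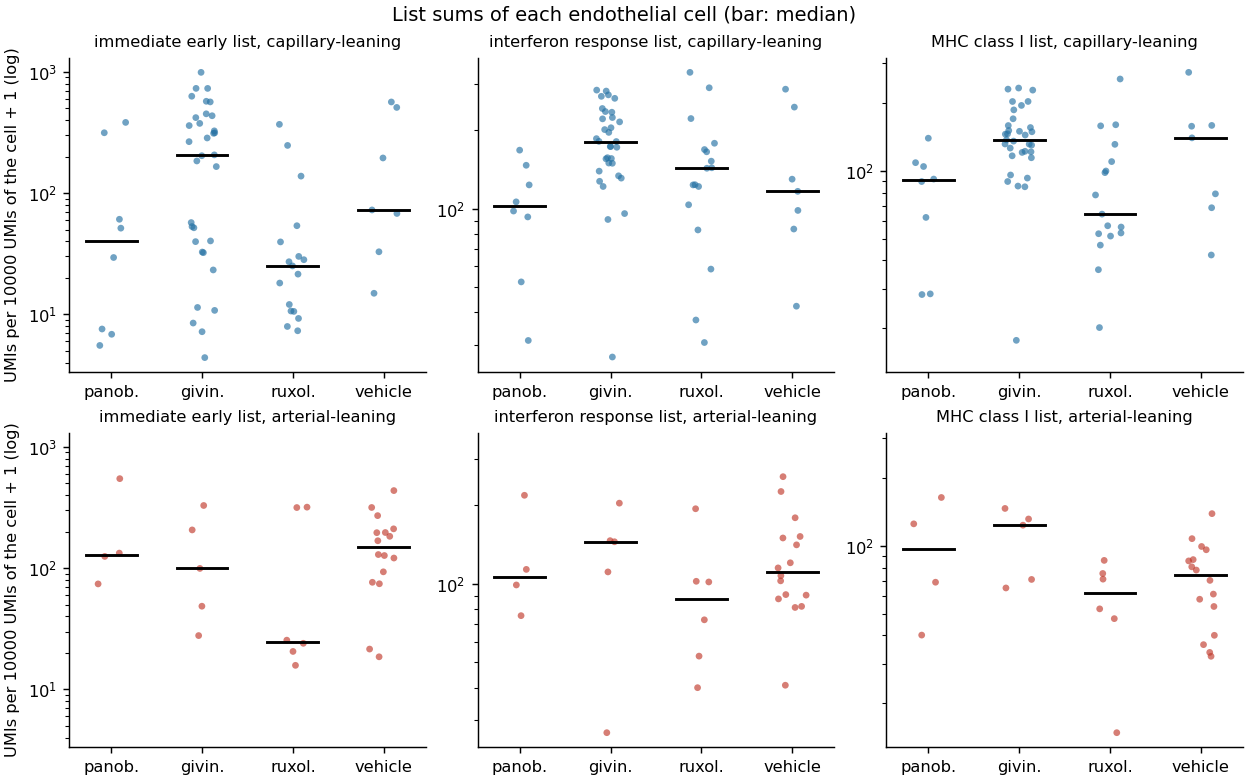
Sum of the immediate early, interferon response and MHC class I lists in each capillary-leaning cell (upper panels) and arterial-leaning cell (lower panels) without other types' markers, as UMIs per 10000 UMIs plus 1 on a log axis, with bars at the medians. Immediate early sums of capillary-leaning cells have medians of 39.4, 205.6, 24.1 and 71.6 per 10000 UMIs in the panobinostat, givinostat, ruxolitinib and vehicle libraries, and the cells of all 4 libraries overlap.

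Heat shock and flow genes gave mixed values in the sums. Hspa1a and Hspa1b, inducible HSP70 chaperones, had 679.2, 815.1, 797.7 and 309.0 CPM and 377.3, 434.5, 230.2 and 97.0 CPM in the panobinostat, givinostat, ruxolitinib and vehicle sums. Vehicle was lowest, and 41.3%, 20.3%, 55.3% and 27.3% of the Hspa1a UMIs came from 1 cell of each library. Hspa1a was detected in 2 of 8, 14 of 33, 3 of 17 and 3 of 7 capillary-leaning cells. Heat shock genes had medians of 0.34, 0.17 and 0.06, with 2 of 9 members 2-fold higher for each drug, and in capillary-leaning cells 0.67, 1.12 and 1.06. Klf4, a flow-induced factor, had 1283, 1122, 255.4 and 743.1 CPM, with ruxolitinib at 0.344 of vehicle (0.265 to 0.441). In capillary-leaning cells it had 551.5, 1184, 489.6 and 497.5 CPM, with ruxolitinib at 0.984 (0.572 to 1.75), an interval that includes 1. Klf2, its relative, had 1811, 1731, 835.6 and 1172 CPM in the sums. Coagulation and flow genes had 3 of 8 members higher and 0 lower with panobinostat, 2 and 0 with givinostat, and 1 and 1 with ruxolitinib.

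Collagen IV genes were higher in each drug library than with vehicle. Col4a1 and Col4a2, the collagen IV chains of vascular basement membranes, had 937.9, 1351, 822.9 and 459.6 CPM and 517.5, 613.0, 488.7 and 206.8 CPM in the panobinostat, givinostat, ruxolitinib and vehicle sums. Col4a1 ratios were 2.04 (1.56 to 2.65), 2.94 (2.46 to 3.52) and 1.79 (1.48 to 2.18). In capillary-leaning cells Col4a1 had 1434, 1336, 1750 and 945.3 CPM, with ratios of 1.52 (1.00 to 2.33), 1.41 (1.01 to 2.03) and 1.85 (1.30 to 2.71). Vehicle was lowest in both, by less within the class for panobinostat and givinostat but not for ruxolitinib. Over the list, 3 of 13 members were 2-fold or more higher and 2 lower with panobinostat (median 0.58), 5 of 14 and 2 with givinostat (0.36), and 5 of 15 and 1 with ruxolitinib (0.73). Mgp had 258.7, 353.7, 3084 and 812.0 CPM, with 56.1% of the ruxolitinib UMIs from 1 cell. In all other kept cells only 1 member passed 100 CPM.

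The arterial list had a median below vehicle in each drug library. Of 10 that passed 100 CPM, 3 were 2-fold or more lower and 0 higher with panobinostat (median -0.43), 3 and 0 with givinostat (-0.72), and 5 lower and 1 higher with ruxolitinib (-0.91). Sox17 had 366.5, 256.0, 126.1 and 472.4 CPM in the panobinostat, givinostat, ruxolitinib and vehicle sums, and Fbln5, an elastic fibre protein, 86.3, 121.3, 208.1 and 395.8 CPM. Edn1, the vasoconstrictor endothelin-1, had 32.3, 57.3, 56.8 and 183.9 CPM. Vehicle was highest for all 3, as for the share of arterial-leaning cells. All 3 are among the arterial genes that set the division, and the list is the one used for it. The match of list and genes with that share is therefore no separate result. Sox17 helped to choose the arterial-leaning cells, where it had 1013, 1498, 391.4 and 909.2 CPM. There vehicle lay inside the range of the drug libraries. Ednrb, the endothelin receptor of endothelium, was lower in vehicle, with 377.3, 448.0, 236.5 and 122.6 CPM in the sums.

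Adhesion molecules that leukocytes use to leave vessels were detected in a minority of cells of most libraries. Icam1 had 172.5, 192.0, 107.2 and 137.9 CPM in the panobinostat, givinostat, ruxolitinib and vehicle sums, and Vcam1 161.7, 124.6, 78.8 and 53.6 CPM. Vcam1 was detected in 38.9%, 32.5%, 23.5% and 14.3% of endothelial cells, and its log2 ratio of panobinostat over vehicle was 1.51 but -0.63 when cells were thinned to 5272 UMIs before they were chosen. The shares in proximal tubule cells were 2.05%, 5.32%, 2.02% and 6.51%, at another median depth. Thinned to 5374 UMIs, which leaves 7, 36, 22 and 23 endothelial cells, the shares were 28.6%, 30.6%, 27.3% and 17.4%, and all 4 intervals of the unthinned shares overlap. Sele was detected in 1, 2, 1 and 2 cells and Selp in 0, 2, 2 and 0 cells, so a difference in these selectins was not detectable at this depth. For Selp, 0 of 18 panobinostat cells allows a share of cells with a UMI of up to 16.7% and 0 of 35 vehicle cells up to 8.57%, each as 3 cells of the total. Of the adhesion list 2 of 6 members were 2-fold higher with panobinostat and with givinostat, and with ruxolitinib 0 of 4 was higher and 1 lower.

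Some of the highest and lowest ratios rested on 1 cell. With panobinostat the genes highest over vehicle included Cdk1, Cenpe, Cenpf and Ube2c, all genes of mitosis, at 150.9, 345.0, 636.1 and 172.5 CPM against 2.55, 28.1, 25.5 and 15.3 CPM with vehicle, and 85.7% to 93.8% of the panobinostat UMIs came from 1 cell. Without the cells over 2 times the median UMI total the log2 ratio of Cenpf was -0.01 in place of 4.39 and that of Ube2c -1.19 in place of 3.13. Cells with at least 3 of 7 core cycle genes numbered 2 of 18, 0 of 40, 1 of 34 and 2 of 35, and all 5 were capillary-leaning. MHC class II genes in the panobinostat sum, such as Cd74 at 1994 CPM against 104.7 with vehicle, came to 93.0% from 1 cell. Haemoglobin genes reached 33.1% of UMIs in 1 panobinostat and 42.1% in 1 ruxolitinib cell. With givinostat the highest were Rgcc, Igf1, Plvap, Esm1, Serpinb9, an inhibitor of granzyme B, Ifi204, a DNA sensor, Kit and Aqp6. Serpinb9 had 212.2 CPM in 18 cells with givinostat against 20.4 CPM in 6 cells with vehicle, and Ifi204 138.1 CPM in 22 cells against 7.66 CPM in 3 cells. Both were spread over many cells, with 31.8% and 14.6% of their givinostat UMIs from 1 cell, while Kit had 71.4% and Aqp6 76.2%.

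With ruxolitinib the highest included Scg5, Eln, Col15a1, Fam13a, Atp6v0d2, Atp6v1c2 and Hepacam2. Eln, the elastin gene, had 469.8 CPM with ruxolitinib against 66.4 CPM with vehicle, with 46.3% of UMIs from 1 cell, and Col15a1, a basement membrane collagen, 145.0 CPM in 20 cells against 22.98 CPM in 6 cells. Atp6v0d2, Atp6v1c2 and Hepacam2, which intercalated cells of the collecting duct use, stood in 3, 3 and 2 ruxolitinib cells and at 0 UMIs in 2 of these 3 genes with vehicle. The log2 ratio of Atp6v0d2 was 2.50, but -0.67 without the Ptprc limit. Scg5 had a log2 ratio of 2.91 with 61.5% of its ruxolitinib UMIs from 1 cell, and of -2.12 without cells that carry markers of other types. Fam13a had 2.30 with 81.0% of its ruxolitinib UMIs from 1 cell, -1.50 without those cells and -0.05 without the cells over 2 times the median UMI total. Among the lowest ratios, Tagln, Myl9, Col3a1 and Notch3, genes of smooth muscle and the vessel wall, had 347.3, 209.4, 150.7 and 137.9 CPM with vehicle, 6.74, 0, 0 and 0 CPM with givinostat and 0 CPM of each with ruxolitinib. The vehicle UMIs of these 4 genes came from 3 to 5 cells, and the givinostat log2 ratio of Tagln was -4.91, but 0.05 without the cells over 2 times the median UMI total. Tspan8 had 40.4 CPM with givinostat against 939.7 CPM with vehicle, and Aqp1 69.4 CPM with ruxolitinib against 1106 CPM with vehicle. Aqp1 was detected in 5 ruxolitinib and 7 vehicle cells, with 72.7% and 52.7% of its UMIs from 1 cell. Tspan8 and Aqp1 were both higher in arterial-leaning than in capillary-leaning cells in all 4 libraries. For panobinostat the lowest included Calca, Thbs2, Tgfb2, Eprn, Rhcg, Pi16 and Sfrp1, each with 0 or 1 UMI against 40 to 93 with vehicle. The log2 ratio of Sfrp1 was -3.83, but 0.24 without the Ptprc limit. The part of wall cells, tubule cells and vessel mix in these ratios was not tested.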

How the data were processed

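One matrix of UMI counts per gene and cell (10x Chromium 3' libraries of 4 groups, 16706 genes and 16003 cells) was used as deposited. Per the submitters' processing notes Cell Ranger 3.0.1 and mm10 were used. Cells were tied to libraries by the name in the barcode, and the library named CTRL was taken as vehicle since no drug is in its name. The deposited counts were not altered. Cells with under 200 genes (226) were left out.

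Counts were summed per library over endothelial cells and scaled to CPM (counts per 1000000 UMIs). Because 3' counts are not scaled by length, levels are compared within a gene. Log2 ratios used a pseudocount of 5 CPM. Lists are summarised by medians over members with 20 CPM or more in 1 of the 2 libraries, and a gene was counted as called past 2-fold at 100 CPM or more. Ratio intervals are exact conditional binomial intervals and share intervals are exact Clopper-Pearson intervals, all at 95% and for counting error only. A count of 0 allows up to 3 counts. No doublet caller was run, and cells in which a list of another cell type reached 1% of UMIs were left out in an alternative. Arterial-leaning over capillary-leaning ratios used 150 CPM and a pseudocount of 20 CPM, without those cells.

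Members, lists and alternatives were chosen with earlier results of these data known. The arterial and capillary division was set after the data were seen, because the planned glomerular split (31 of 127 cells) held 28 arterial-leaning cells. Genes named are the gate and marker genes, up to 6 members per list with the highest levels, the 8 highest and 8 lowest ratios per drug among genes at least 2 times above other kept cells, and the 20 genes highest over other cells. Some genes that this rule names are not reported here. Ratios from arterial-leaning and capillary-leaning cells, Icam1, Vcam1 and the selectins, and Igfbp3, Aplnr, Klf4, Socs3 and Ednrb were chosen after their values were seen where that rule does not name them. Python 3.11.15, numpy 2.4.6, scipy 1.17.1, pandas 2.3.3 and matplotlib 3.10.9 were used, with R 4.3.3, edgeR 4.0.16 (TMM factors) and DESeq2 1.42.0 (size factors) for scaling alternatives only. The sums and ratios were tested on simulated data. Alternatives were other gates, filters, scalings, thinning and leaving out cells.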

Additional observations from a re-analysis of the deposited data

How the results depend on the processing

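Arterial-leaning shares kept within their counting intervals in 28 of 28 alternatives, and shares of all cells in 23 of 32. Without the Slc34a1 limit the panobinostat share was 0.6824%. With Slc34a1 at 0 UMIs the shares were 0.2275% (panobinostat), 0.6912% (givinostat), 0.5529% (ruxolitinib) and 0.5852% (vehicle), and without the Ptprc limit 0.7734%, 1.93%, 1.332% and 1.272%. Counts of genes past 2-fold (509, 571 and 225 for panobinostat, givinostat and ruxolitinib) were 226, 323 and 83 without the Ptprc limit, 1274, 1068 and 531 at 50 CPM, 204, 288 and 110 at 200 CPM, and 5044, 3564 and 2615 with no filter. Panobinostat gave 288 genes without the Slc34a1 limit and 843 with Slc34a1 at 0. Ruxolitinib gave 399 without cells that hold other types' markers, 492 thinned to 5272 UMIs before the gate, and 473 without cells over 2 times the median UMI total, an alternative chosen after seeing the data. Of 3615 gene ratios 626 moved past their counting intervals, 129 of 241 without the Ptprc limit, 113 without the deep cells and 108 thinned, and 17 with a 2-fold ratio reversed. Without the Ptprc limit the log2 ratios were -0.67 for Atp6v0d2, 0.12 for Cd74, 1.26 for Fxyd4 and 1.05 for H2-DMb1 with ruxolitinib, and -0.01 for Npr1 and 0.24 for Sfrp1 with panobinostat. Thinned, they were 1.04 for Cd74 with ruxolitinib, and -1.53 for H2-DMb1 and -0.63 for Vcam1 with panobinostat. Without cells of other types' markers they were -1.50 for Fam13a and -2.12 for Scg5 with ruxolitinib. Without the deep cells they were -0.01 for Cenpf, -0.10 for H2-Q7, -0.15 for Npr1 and -1.19 for Ube2c with panobinostat, -0.05 for Fam13a with ruxolitinib, and 0.05 for Tagln with givinostat. The cause was not tested. No paired analysis was possible because each group has 1 library, and for the same reason no replicate could be left out.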
